A study of Mus musculus with 201 samples.

Results

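The genes described here are the precursors of 8 neuropeptides, namely *Pdyn*, *Penk*, *Npy*, *Cck*, *Sst*, *Tac1*, *Adcyap1* and *Grp*. They were taken as a list of gene names from the 42609 symbols that all 3 expression tables held, and each of the 8 had a row in every table. Messenger RNA was sequenced from 201 single cells or nuclei of the mouse dentate gyrus, of which 172 were kept for depth and number of genes detected. Whole dentate granule cells (DGCs) were sorted by GFP from *Prox1*-GFP reporter mice 1 h after an injection of saline (38 of 47 cells kept) or of the convulsant pentylenetetrazole (PTZ) at 50 mg per kg (30 of 35 kept). These cells had been dissociated with a protease, and the study describes a pool of 2 mice for each treatment, whereas the series' design text speaks of a single mouse. Nuclei of 1 C57BL/6 mouse, 8 weeks old, were sorted as PROX1+ and as FOS+ (40 of 48 kept) or FOS− (41 of 48 kept) after 15 min in an unfamiliar environment (NE) and 1 h back in the home cage. A further 23 PROX1+NEUN+ nuclei came from 1 C57BL/6 mouse that stayed in its home cage (HC), and all were kept. Whole cells and NE nuclei were amplified in plates by Smart-seq2, and HC nuclei on a microfluidic C1 chip.

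Neuropeptides are made as long precursor proteins that enter dense-core vesicles, where convertases and trimming enzymes cut out the active peptides. Released peptides act on G-protein-coupled receptors, often more slowly and over longer distances than classical transmitters. In the dentate gyrus, dynorphin and enkephalin are known in the mossy fibres of granule cells, neuropeptide Y and somatostatin chiefly in hilar interneurons, and neuropeptide Y also in granule cells after seizures.

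A gene was called detected in a cell when its TPM, the length-corrected level that the authors computed in each cell, was above 1. Median total counts were 975934 in saline cells, 1090755 in PTZ cells, 214421 in FOS− nuclei, 269061 in FOS+ nuclei and 165926 in HC nuclei. The granule cell marker *Prox1* was detected in all 38 saline and all 30 PTZ cells, in 34 of 41 FOS− nuclei, 33 of 40 FOS+ nuclei and 14 of 23 HC nuclei. Of 8 granule cell markers, *Plk5* (16 of 30 against 31 of 38 cells) and *Stxbp6* (22 of 30 against 36 of 38) were detected in a share at least 20 points lower in PTZ than in saline cells, and none of the 8 differed 2-fold in summed level between them. Of the interneuron markers, *Gad2*, *Slc32a1* and *Lhx6* were detected in no whole cell, but at least 1 of them was detected in 12 FOS− nuclei, 21 FOS+ nuclei and 11 HC nuclei. The labels name no animal or culture for single cells, so each group stands as 1 sample, no test was possible, and every interval given below is a 95% interval that covers counting error only. Whole cells, NE nuclei and HC nuclei differed in mouse and preparation, and NE nuclei also in read length (50 bases against 100 in the other sets), so differences among the 3 sets cannot be assigned to any of these. Titles of PTZ cells and of saline cells end in different suffixes whose meaning is not given, and whatever they mark cannot be told apart from the treatment.

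The stretches before the start of 4 of the genes are shown because *Npy* and *Pdyn* differed most between FOS+ and FOS− nuclei, *Cck* was detected most widely, and *Sst* holds a textbook response element for CREB, a factor activated by cAMP and calcium. They come from RefSeq promoter windows on GRCm38.p6, which is the mm10 build of the deposited tables, and run 5′ to 3′ on the gene's strand. Capitals mark the cAMP response element (CRE) TGACGTCA or its core TGACG on either strand, which reads CGTCA on the other strand. The *Npy* stretch is chr6:49822610-49822709 (+), the *Pdyn* stretch chr2:129699939-129700038 (−), and the *Cck* stretch chr9:121495695-121495794 (−), each the last 100 bases before the RefSeq start. The *Sst* stretch is 30 bases at chr16:23890874-23890903 (−) around its CRE, and GENCODE starts that gene further upstream than RefSeq does.
Npy: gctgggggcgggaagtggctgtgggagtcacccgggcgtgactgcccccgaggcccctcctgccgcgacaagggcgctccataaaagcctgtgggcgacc
Pdyn: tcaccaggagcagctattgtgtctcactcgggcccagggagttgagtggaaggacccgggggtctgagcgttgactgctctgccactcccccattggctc
Cck: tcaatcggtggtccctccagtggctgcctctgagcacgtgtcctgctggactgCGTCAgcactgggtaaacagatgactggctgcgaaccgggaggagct
Sst: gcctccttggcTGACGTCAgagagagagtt

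Windows of 250 bases before the start were searched for 6 of the genes on both strands. The full CRE was found once, in *Sst*, 48 to 41 bases before the RefSeq start, and 1.55% of the 32851 windows of all genes held one. The core, which every full CRE also contains, was present in windows of *Cck*, *Sst*, *Tac1* and *Adcyap1*, and 17.8% of all windows held it. The AP-1 element TGACTCA, to which FOS and JUN proteins bind, was in none of the windows of the 6 genes and in 4.46% of all windows. The windows of *Npy* and of *Pdyn* held none of the 3 motifs. These are matches of letters in short windows, and binding was not measured.

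In the GENCODE annotation of GRCm38, all 8 genes are protein coding. *Pdyn* lies at chr2:129686565-129699844 (−), *Penk* at chr4:4133531-4138819 (−), *Npy* at chr6:49822710-49829507 (+) and *Tac1* at chr6:7554879-7565834 (+). *Cck* lies at chr9:121489824-121495694 (−), *Sst* at chr16:23889573-23890958 (−), *Adcyap1* at chr17:93199017-93206537 (+) and *Grp* on chromosome 18. *Npy* and *Tac1* share a chromosome, and no 2 of the genes are neighbours. The exons of *Npy* cover 566 bases and those of *Adcyap1* 3777 bases, so levels were compared between genes only as TPM.

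The 8 genes differed in where they were detected. *Cck*, the precursor of cholecystokinin, was detected in most cells and NE nuclei, and *Pdyn*, *Penk* and *Grp* were detected in a larger share of whole cells than of nuclei. *Npy* and *Sst* were detected in NE nuclei alone among the 3 sets. For both genes the 0 in 23 HC nuclei allows a detecting share of up to 13.04%. That value lay inside the intervals of both groups of NE nuclei, so HC nuclei did not stand apart from them. *Tac1*, the precursor of substance P and neurokinin A, and *Adcyap1*, the precursor of the peptide PACAP, had 0 counts in every kept cell and nucleus. A count of 0 in 172 cells or nuclei allows a detecting share of up to 1.74%. Such zeros were common in these tables, since 38.3% of the symbols had 0 counts in all 201 columns.

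**Figure D1:**
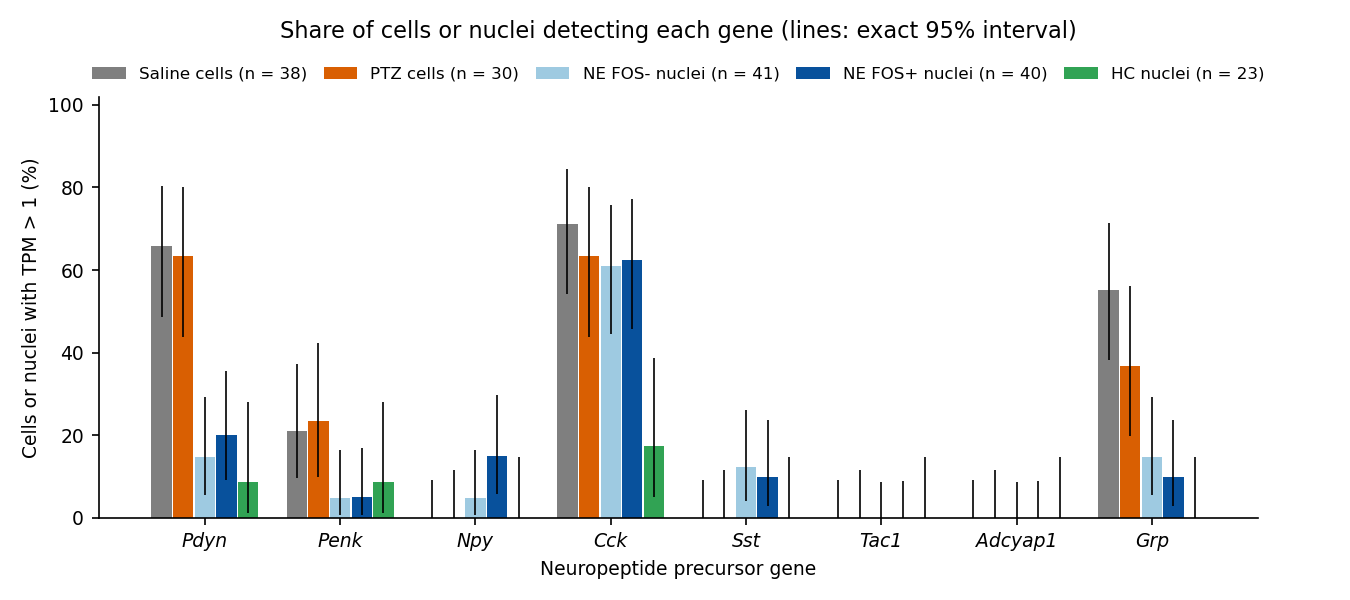
Share of kept cells or nuclei with a TPM above 1 (%, vertical axis) for each of the 8 precursor genes in saline whole cells, PTZ whole cells, NE FOS− nuclei, NE FOS+ nuclei and HC nuclei; lines are exact 95% binomial intervals. *Cck* stood between 61.0% and 71.1% in 4 groups and at 17.4% in HC nuclei, and *Npy* and *Sst* had bars in NE nuclei alone. A share of 0 in HC nuclei allows up to 13.04%.

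*Cck* was the member with the highest mean level in each of the 5 groups. It was detected in 27 of 38 saline cells (71.1%, exact interval 54.1 to 84.6%), 19 of 30 PTZ cells (63.3%, 43.9 to 80.1%), 25 of 41 FOS− nuclei (61.0%, 44.5 to 75.8%) and 25 of 40 FOS+ nuclei (62.5%, 45.8 to 77.3%). These 4 intervals overlapped widely. In HC nuclei it was detected in 4 of 23 (17.4%, 4.95 to 38.8%), an interval that lay below those of all 4 other groups. For how many other genes this held was not counted. HC nuclei also had fewer detected genes of any kind, with a mean of 3237 against 6185 in FOS+ and 6281 in FOS− nuclei. The mean level of *Cck* was 618 ± 870 TPM (SD over 38 cells) in saline cells, 629 ± 756 TPM in 30 PTZ cells, 621 ± 926 TPM in 41 FOS− nuclei, 564 ± 824 TPM in 40 FOS+ nuclei and 221 ± 595 TPM in 23 HC nuclei. The lowest value was 0 in each group, and the highest was 3189, 2699, 3884, 3664 and 2409 TPM in the same order. The spread between cells exceeded the mean in every group.

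*Pdyn*, the precursor of the dynorphins, which act on the kappa opioid receptor, was detected in most whole cells and in a minority of nuclei. It was found in 25 of 38 saline cells (65.8%, 48.7 to 80.4%) and 19 of 30 PTZ cells (63.3%, 43.9 to 80.1%). In saline cells the lowest value was 0, the median 42.04 and the highest 639 TPM, and in PTZ cells these were 0, 83.1 and 395 TPM. The values of the 2 treatments covered much the same range. *Pdyn* was detected in 6 of 41 FOS− nuclei (14.6%, 5.57 to 29.2%), 8 of 40 FOS+ nuclei (20%, 9.05 to 35.6%) and 2 of 23 HC nuclei (8.70%, 1.07 to 28.04%). The intervals of the 3 groups of nuclei lay below the interval of either group of whole cells. How many other genes were apart in this way was not counted, and whole cells were sequenced more deeply. After thinning to 50000 counts a cell the shares were 58.4% in saline and 58.8% in PTZ cells. In FOS−, FOS+ and HC nuclei they were then 11.8%, 17.9% and 7.27%. A detecting nucleus could nevertheless hold a high level, since 1 of the 2 HC nuclei with *Pdyn* stood at 1169 TPM on 476 counts.

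*Penk*, the precursor of the enkephalins, which act chiefly on delta and mu opioid receptors, was detected in few cells but at high levels in them. Its share was 8 of 38 saline cells (21.1%, 9.55 to 37.3%) and 7 of 30 PTZ cells (23.3%, 9.93 to 42.3%). Among detecting cells, values ran from 101 to 2766 TPM with a median of 409 TPM in saline and from 40.2 to 2894 TPM with a median of 153 TPM in PTZ. No whole cell held *Penk* between 1 and 40.2 TPM, so each cell was either without it or well above the limit of detection. A single cell gave 54.6% of the *Penk* counts in saline and a single cell gave 42.2% in PTZ. In nuclei *Penk* was detected in 2 of 41 FOS− nuclei, at 841 and 286 TPM, in 2 of 40 FOS+ nuclei, at 20.02 and 716 TPM, and in 2 of 23 HC nuclei, at 312 and 4.88 TPM. The lower of the HC values rested on 1 count.

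*Grp*, the precursor of gastrin-releasing peptide, was detected in 21 of 38 saline cells (55.3%, 38.3 to 71.4%) and 11 of 30 PTZ cells (36.7%, 19.9 to 56.1%). The median over all saline cells was 14.7 TPM and the highest 1078 TPM, while the median over PTZ cells was 0 and the highest 642 TPM. It was detected in 6 of 41 FOS− nuclei (14.6%, 5.57 to 29.2%), in 4 of 40 FOS+ nuclei (10.0%, 2.79 to 23.7%) and in no HC nucleus. For a count of 0 in 23 nuclei a detecting share of up to 13.04% is allowed, so the HC value did not stand apart from those of the NE nuclei.

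**Figure D2:**
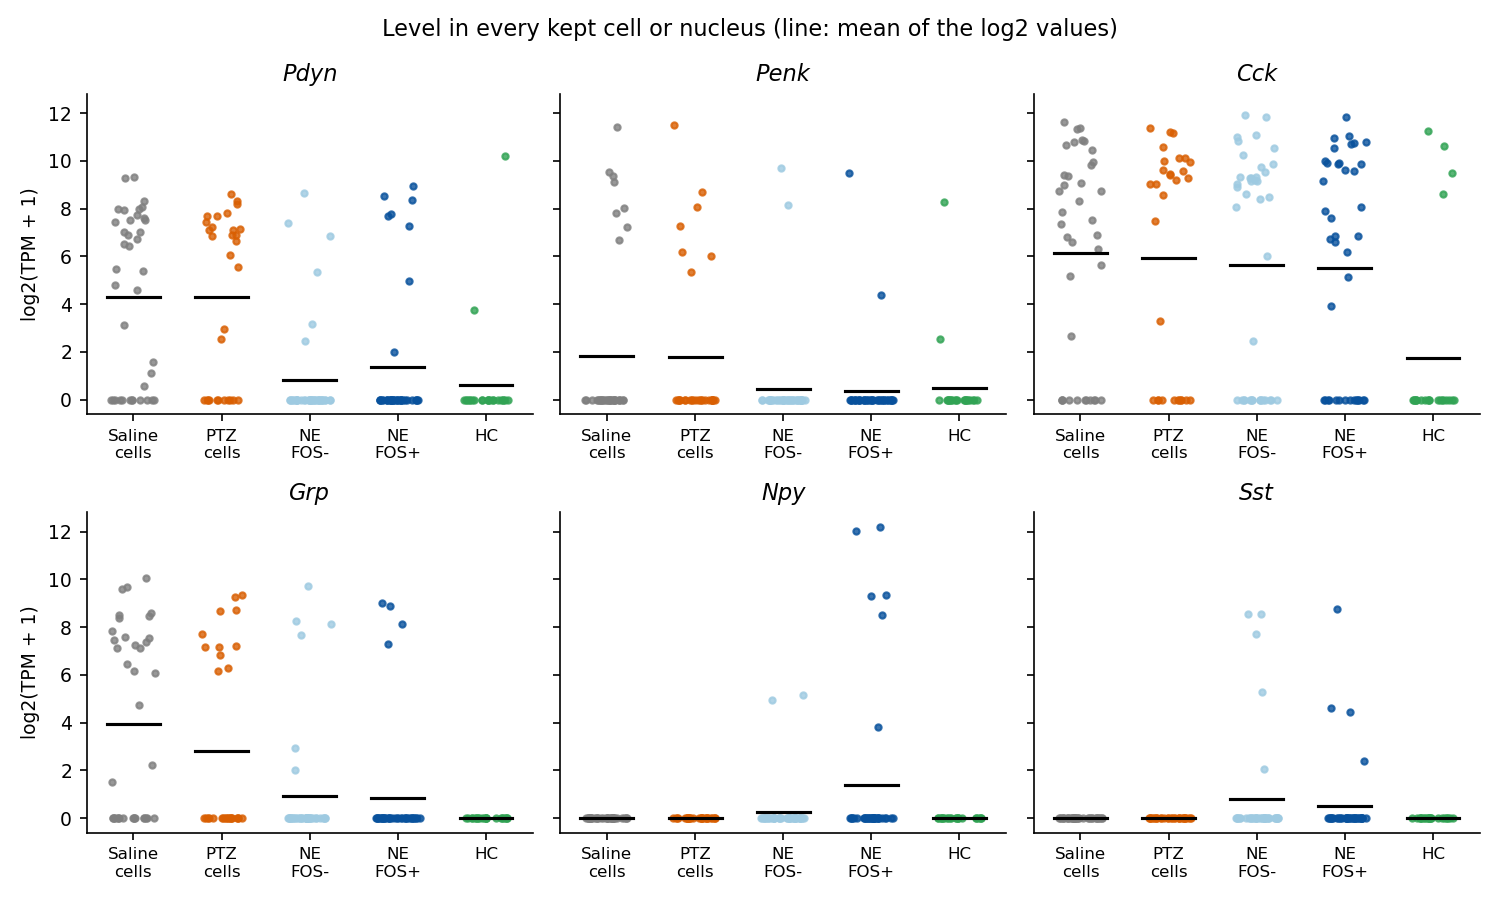
Level of 6 precursor genes in every kept cell or nucleus, as log2(TPM + 1) on the vertical axis, by group; each point is 1 cell or nucleus and each line the mean of the log2 values. *Cck* filled the upper range in all groups but HC nuclei, whereas *Npy* had 5 points between 365 and 4744 TPM, all of FOS+ nuclei.

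The order of mean TPM among detected members was *Cck*, *Grp* (151 ± 252), *Penk* (144 ± 474) and *Pdyn* (115 ± 158) in saline cells. In PTZ cells it was *Cck*, *Penk* (130 ± 530), *Grp* (99.3 ± 182) and *Pdyn* (98.0 ± 110). The last 3 in each order did not differ beyond their spread between cells. In FOS+ nuclei the order was *Cck*, *Npy* (265 ± 992), *Pdyn* (45.2 ± 116), *Grp* (35.6 ± 118), *Penk* (18.4 ± 113) and *Sst* (12.2 ± 69.3). In FOS− nuclei it was *Cck*, *Grp* (40.1 ± 147), *Penk* (27.5 ± 138), *Sst* (24.5 ± 87.3), *Pdyn* (18.2 ± 70.1) and *Npy* (1.59 ± 7.12). Neighbours below *Cck* were closer than their spread in these orders too.

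The comparison of PTZ with saline asked whether levels differed 1 h after a convulsant. A level was compared as CPM, the counts summed over the cells of a group and scaled to a common total, and a gene entered if it was detected in at least 5 cells of the 2 groups. *Pdyn*, *Penk*, *Cck* and *Grp* entered, and none of the 4 reached a 2-fold difference in either direction. Among the 13748 genes that entered, 12.4% were at least 2-fold higher and 13.1% at least 2-fold lower in PTZ cells, 25.5% in all. No member differed by 20 percentage points in its detecting share, compared with 7.88% of these genes. Of 12 genes induced by activity, none passed 2-fold or 20 points in this comparison. *Fos* was detected in 26 of 30 PTZ and 30 of 38 saline cells, and *Arc* in 14 of 30 and 17 of 38. The study likewise reports RNA of *Fos*, *Egr1* and *Arc* in similar shares of dissociated saline and PTZ cells. The comparison therefore does not set active against inactive cells.

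*Cck* stood at 212 CPM in PTZ and 211 CPM in saline cells, a ratio of 1.01 (counting interval 0.977 to 1.04). *Pdyn* stood at 178 and 160 CPM, a ratio of 1.11 (1.07 to 1.15), but its mean TPM, in which each cell weighs the same, was lower in PTZ, at 98.0 against 115 TPM. The direction for *Pdyn* therefore depended on how cells were weighted. *Grp* stood at 51.3 CPM in PTZ and 81.7 CPM in saline cells, a ratio of 0.628 (0.595 to 0.663), and its detecting share was 18.6 points lower. Without the cell with the most *Grp* counts in each group the ratio was 0.610. PTZ cells with *Grp* had a median total of 2165372 counts and those without it 924078. After thinning each cell to 50000 counts the *Grp* share was 12.2 points lower in PTZ, a smaller gap than at full depth. *Penk* stood at 54.5 CPM in PTZ and 92.9 CPM in saline cells, a ratio of 0.587 (0.558 to 0.619), which was 0.788 without the top cell of each group. Its detecting share was 2.28 points higher in PTZ. *Npy*, *Sst*, *Tac1* and *Adcyap1* had 0 counts in all 68 whole cells, which allows a detecting share of up to 4.41%.

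The comparison of FOS+ with FOS− nuclei asked what distinguished nuclei that carried FOS protein after NE from neighbours of the same mouse that did not. *Pdyn*, *Npy*, *Cck*, *Sst* and *Grp* entered, and 2 of them, *Npy* and *Pdyn*, were at least 2-fold higher in FOS+ nuclei, whereas none was 2-fold lower. Of the 16387 genes that entered, 18% were at least 2-fold higher and 28.1% at least 2-fold lower, 46.2% in all, and among genes detected in 6 to 10 nuclei 65.2% passed 2-fold in one direction or the other. No member differed by 20 points in its detecting share, compared with 8% of all genes that entered. The activity-induced gene *Arc*, read as a check of the sort, was detected in 31 of 40 FOS+ nuclei and 1 of 41 FOS− nuclei. Of 8 granule cell markers, *Plk5* (3.19 against 112 CPM) and *C1ql2* (90.7 against 248 CPM) were at least 2-fold lower in FOS+ nuclei. *Dsp* was at least 2-fold higher (88.1 against 43.3 CPM), and *Stxbp6* had a share 20.7 points lower. At least 2-fold higher were also 3 of 5 mossy and CA pyramidal markers that entered, *Nr4a2*, *Fibcd1* and *Wfs1*. *Nr4a2* was detected in 31 FOS+ and 9 FOS− nuclei and had a ratio of 464, beside 857 for the activity-induced *Nr4a1*. *Wfs1* was detected in 10 FOS+ and 13 FOS− nuclei. Of 3 microglia markers 2 were higher, *Csf1r* in 4 FOS+ and 1 FOS− nuclei and *P2ry12* in 4 and 5. Of 6 interneuron markers that entered, *Gad2* was at least 2-fold higher, at 9.96 against 2.52 CPM in 14 FOS+ and 7 FOS− nuclei. *Dlx6os1* was at least 2-fold lower, at 1.06 against 7.05 CPM. Of 3 oligodendrocyte markers *Mobp* was at least 2-fold higher, and so was *Pecam1*, the 1 endothelial marker that entered. The part of these markers in the differences of the members was not tested.

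*Npy* gave the widest separation. It was detected in 6 of 40 FOS+ nuclei (15%, 5.71 to 29.8%), at 4744, 4214, 642, 640, 365 and 13.01 TPM. The 5 higher nuclei held 264, 257, 128, 37 and 74 counts in that order, and the lowest held 1 count. It was detected in 2 of 41 FOS− nuclei (4.88%, 0.60 to 16.5%), at 35.2 and 29.8 TPM, each on 1 count. All 5 nuclei with more than 1 count of *Npy* were thus FOS+. Summed levels were 52.6 CPM on 761 counts in FOS+ and 0.143 CPM on 2 counts in FOS− nuclei, a ratio of 367 with a counting interval of 101 to 3040. With each nucleus weighing the same, mean TPM gave a smaller ratio of 167. Without the top nucleus of each group, 34.7 and 0.0721 CPM remained. At a detection limit of 5 counts the shares were 12.5% of FOS+ and 0% of FOS− nuclei. Since 34 of 40 FOS+ nuclei did not detect *Npy*, the difference rested on a small number of nuclei with high levels.

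The FOS+ nuclei with *Npy* were spread over 3 of the 4 amplification conditions, which combined a template-switching oligonucleotide at 1 or 10 µM with spike-ins diluted 1:200 or 1:2000. In those 3 conditions FOS+ nuclei had the larger share, and in the fourth no nucleus of either sort detected *Npy*. All 6 nuclei also detected *Arc*, as did 25 of the other 34 FOS+ nuclei. None of the 6 detected *Fos* mRNA, compared with 12 of the other 34. *Prox1* was detected in 5 of the 6. *Gad1*, *Gad2* and *Lhx6* were each detected in 1 of the 6, and *Slc32a1* in none. Of 10 interneuron markers, 8 were detected in at least 1 FOS+ nucleus and 9 in at least 1 FOS− nucleus. The summed TPM of the 10 interneuron markers had a median of 3.74 and ran from 0 to 772 in the 6 nuclei, and a median of 47.8 and a range of 0 to 1437 in the other 34. Leaving out every nucleus that detected *Gad2*, *Slc32a1* or *Lhx6*, a step chosen after seeing the data, removed 21 FOS+ and 12 FOS− nuclei. Among the 19 FOS+ and 29 FOS− nuclei left, the *Npy* share was 14.2 points higher in FOS+ nuclei. The part of interneurons in the *Npy* difference was not tested. The median total was 203510 counts in the 6 *Npy* nuclei, 2 of which held 600532 and 617051, and 275156 in the other FOS+ nuclei. The part of depth was not tested.

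*Pdyn* stood at 71.9 CPM in FOS+ and 33.4 CPM in FOS− nuclei, a ratio of 2.16 (counting interval 1.93 to 2.41). The 8 FOS+ nuclei with *Pdyn* held 497, 374, 329, 218, 204, 154, 30.1 and 2.95 TPM. The 6 FOS− nuclei with *Pdyn* held 408, 170, 115, 40.3, 7.99 and 4.57 TPM. The ranges overlapped, with 6 FOS+ nuclei and 2 FOS− nuclei at 154 TPM or more. A single FOS− nucleus held 70.2% of the FOS− counts, and without the top nucleus of each group the ratio was 4.91. The detecting share was 5.37 points higher in FOS+ nuclei, with overlapping intervals, and it was higher in 3 of the 4 amplification conditions and 20 points lower in the fourth. Without nuclei that detected *Gad2*, *Slc32a1* or *Lhx6*, it was 17.8 points higher. *Arc* was detected in 7 of the 8 FOS+ nuclei with *Pdyn* and in 24 of the 32 without it.

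*Cck* stood at 278 CPM in FOS+ and 243 CPM in FOS− nuclei, a ratio of 1.15 (1.10 to 1.20), but its mean TPM was lower in FOS+ nuclei and so was its summed level without the top nucleus of each group, at 195 against 204 CPM. Its level was higher in FOS+ nuclei in 1 of the 4 conditions and lower in 3. *Grp* stood at 35.4 and 33.1 CPM, a ratio of 1.07 (0.940 to 1.21), and 1 nucleus held 72.95% of its FOS− counts. Without the top nucleus of each group the *Grp* ratio was 2.02. *Penk*, detected in 4 NE nuclei, did not enter the comparison.

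*Sst*, the precursor of somatostatin, was detected in 5 FOS− nuclei, at 380, 373, 211, 38.2 and 3.21 TPM, and in 4 FOS+ nuclei, at 439, 23.5, 21.04 and 4.21 TPM. Summed levels were 11.7 CPM in FOS− and 6.85 CPM in FOS+ nuclei, a ratio of 0.587 (0.452 to 0.758) for FOS+ over FOS−. A single FOS+ nucleus held 93.9% of the FOS+ counts, and the ratio was 0.109 without the top nucleus of each group. *Prox1* was detected in 8 of the 9 nuclei with *Sst*, *Lhx6* in 3 and *Gad2* in 1. *Npy* and *Sst*, which are often found together in hilar interneurons, shared 1 nucleus of 81.

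**Figure D3:**
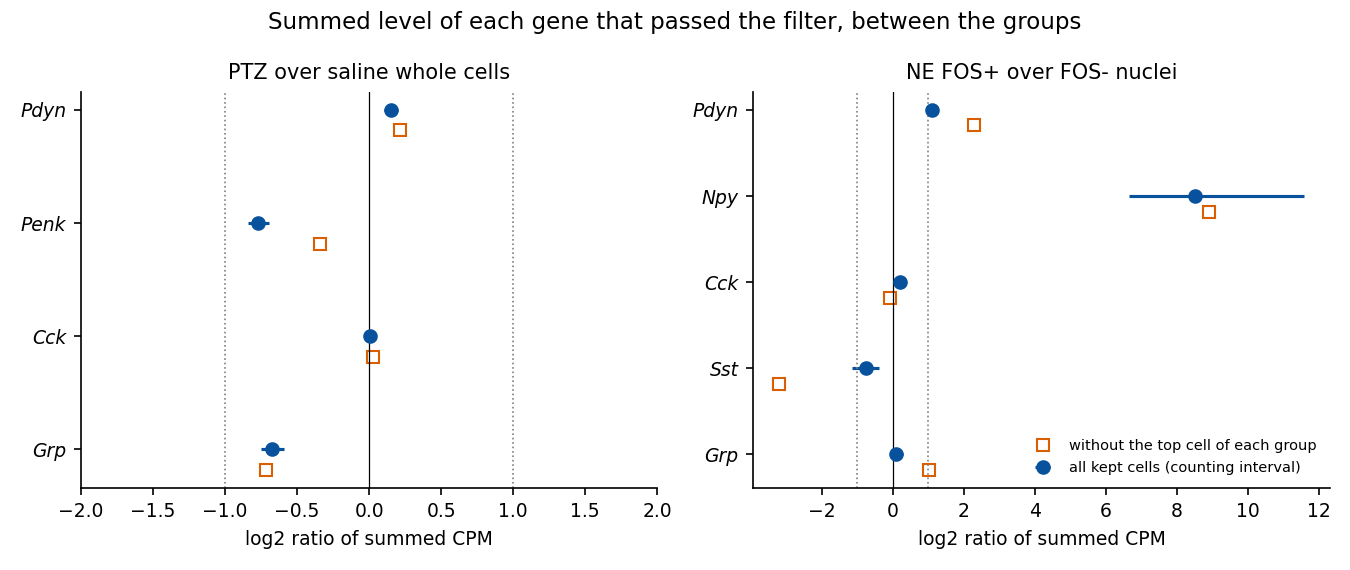
Log2 ratio of the summed CPM (horizontal axis) of each precursor gene that entered, for PTZ over saline whole cells on the left and for NE FOS+ over FOS− nuclei on the right, where the horizontal scales differ; circles are all kept cells with the 95% counting interval, squares leave out the top cell of each group, and dotted lines mark 2-fold. The genes of the left panel stayed between the dotted lines, and on the right *Npy* stood at 8.52 and *Pdyn* at 1.11.

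Members were found together in single whole cells in unequal proportions. Of 68 whole cells, 8 detected none of the 8 genes, 12 detected 1, 25 detected 2, 17 detected 3 and 6 detected 4. *Cck* was detected in 37 of the 44 cells with *Pdyn* (84.1%, 69.9 to 93.4%) and in 9 of the 24 without it (37.5%, 18.8 to 59.4%), intervals that did not overlap. Within treatments this was 22 of 25 against 5 of 13 saline cells and 15 of 19 against 4 of 11 PTZ cells. Cells with *Pdyn* had a median of 6508 detected genes and cells without it 5564. How many other genes were apart in this way was not counted, for this pair or for those below. The most frequent combination was *Pdyn* with *Cck* and no other member, in 18 cells, and a further 13 cells had *Grp* as well.

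*Grp* was detected in 14 of the 15 whole cells with *Penk* (93.3%, 68.1 to 99.8%) and in 18 of the 53 without it (33.96%, 21.5 to 48.3%). Within treatments this was 8 of 8 against 13 of 30 saline cells and 6 of 7 against 5 of 23 PTZ cells. *Cck* lay the other way, in 7 of the 15 cells with *Penk* and 39 of the 53 without it. *Arc* was detected in 11 of the 15 cells with *Penk* and in 20 of the 53 others. Depth moved with co-detection, since cells with *Pdyn* had a median total of 1131453 counts and cells without it 937438, and cells with *Grp* 1277325 against 882582. Its part in these shares was not tested. *Calb1*, a calcium-binding protein of mature granule cells, was detected in 42 of the 44 cells with *Pdyn* and in 14 of the 24 without it. *Fos* mRNA was detected in 33 of the 44 and in 23 of the 24.

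**Figure D4:**
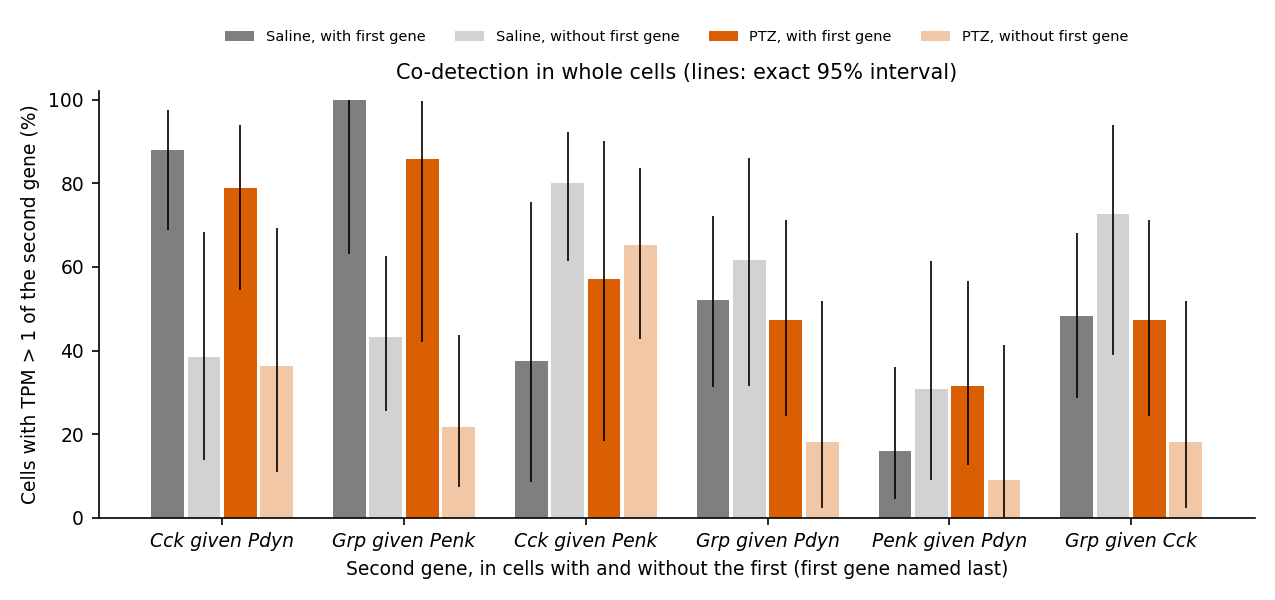
Share of whole cells that detected a second gene (%, vertical axis) among cells with and without a first gene, for 6 pairs in saline cells (grey) and PTZ cells (orange); lines are exact 95% binomial intervals. *Cck* given *Pdyn* and *Grp* given *Penk* had the higher bar with the first gene in both treatments.

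In NE nuclei *Cck* was detected in 11 of the 14 nuclei with *Pdyn* and in 39 of the 67 without it, and in 9 of the 10 nuclei with *Grp* and 41 of the 71 without it. No NE nucleus had *Penk* together with *Grp*, among 4 nuclei with *Penk*. Of 81 NE nuclei 20 detected no member, 35 detected 1, 18 detected 2 and 8 detected 3. In HC nuclei 15 of 23 detected no member and 8 detected 1.

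The genes whose levels followed each member most closely were ranked by Pearson's r of log2(TPM + 1), centred within groups, over genes detected in at least 10 cells of a table. These r values describe 68 whole cells or 81 NE nuclei that differ in depth. In whole cells *Penk* was closest to *Nptx2*, which encodes a secreted synaptic pentraxin (r = 0.71), *Sgk1*, a kinase induced by glucocorticoids (0.68), and *Necab3* (0.58), out of 11454 genes. *Grp* was 28th in that ranking (0.44), while *Cck* lay near its end (−0.30). *Pdyn* was closest to *Zfp668* (0.61), *Sprn* (0.59) and *Insig2* (0.58), and *Cck* was 35th (0.50). *Cck* was closest to *Ahcyl2* (0.66), *Porcn* (0.64) and *Ano3* (0.61), and *Grp* to *Akap5* (0.55), *Vsnl1* (0.52) and *Hspa12a* (0.49). In NE nuclei *Pdyn* was closest to *Exosc10* (0.54), *Cck* to *Slit1* (0.48) and *Grp* to *Dpysl3* (0.59), *Penk* was detected in too few to be ranked, and the r of *Pdyn* with *Cck* was 0.09.

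Receptors of the 8 peptides were followed as a list of 21 genes. Of these, 9 entered the comparison of PTZ with saline, with 0 at least 2-fold higher and 2 at least 2-fold lower in PTZ cells, and 10 entered that of FOS+ with FOS−, with 1 higher and 4 lower in FOS+ nuclei. Past 2-fold in either direction were thus 2 of 9 and 5 of 10, beside 25.5% and 46.2% of all genes that entered. *Sstr1*, a receptor of somatostatin, was among the lower in PTZ cells, at 12.6 against 37.4 CPM. *Npy1r*, a receptor of neuropeptide Y, was detected in 62.5% to 87.0% of every group and stood at 121 CPM in FOS+ and 132 CPM in FOS− nuclei. The other receptors of this peptide that entered were lower in FOS+ nuclei, *Npy2r* at 15.1 against 72.4 CPM and *Npy5r* at 0.83 against 8.45 CPM. These levels rested on few nuclei, 5 FOS+ and 8 FOS− for *Npy2r* and 2 FOS+ and 5 FOS− for *Npy5r*. *Adcyap1r1*, the receptor of PACAP, was detected in 36 of 38 saline cells and 29 of 30 PTZ cells, although its ligand gene *Adcyap1* had 0 counts throughout. In NE nuclei *Adcyap1r1* was detected in 16 of 40 FOS+ and 28 of 41 FOS− nuclei, 28.3 points lower, at 105 and 264 CPM. *Sstr2*, a further receptor of somatostatin, was detected in 11 of 40 FOS+ and 2 of 41 FOS− nuclei, 22.6 points higher, at 157 and 12.4 CPM. The receptors of dynorphin (*Oprk1*) and gastrin-releasing peptide (*Grpr*), and *Cckbr*, 1 of 2 receptors of cholecystokinin, were each detected in at most 2 cells or nuclei of any group. The other cholecystokinin receptor, *Cckar*, was detected in 5 of 40 FOS+ and 3 of 41 FOS− nuclei. *Oprd1*, the delta receptor on which enkephalins act, was detected in 18 of 40 FOS+ and 22 of 41 FOS− nuclei but in 3.33% of PTZ and 5.26% of saline cells.

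Of 8 genes for precursor processing, all entered both comparisons. In FOS+ nuclei 2 were at least 2-fold higher and 2 at least 2-fold lower, that is 4 of 8, beside 46.2% of all genes. *Pcsk1*, which encodes the convertase PC1/3, was detected in 11 of 40 FOS+ nuclei and had 0 counts in all 41 FOS− nuclei, a share 27.5 points higher. *Pam*, the enzyme that amidates peptides such as neuropeptide Y and cholecystokinin, was detected in 40 FOS+ and 40 FOS− nuclei, at 1119 and 239 CPM, a ratio of 4.68. *Scg5*, a chaperone of the convertase PC2, was lower in FOS+ nuclei (34.8 against 82.9 CPM) and *Ctsl* likewise (7.06 against 20.9 CPM). In PTZ cells 1 of the 8, *Cpe*, the carboxypeptidase that trims cut peptides, was at least 2-fold higher (319 against 115 CPM), and *Pcsk1* (8.95 against 30.02 CPM) and *Scg5* (159 against 441 CPM) were at least 2-fold lower. These 3 of 8 stand beside 25.5% of all genes. For *Pcsk1* a single cell held 67.8% of the saline counts. In the same comparison 4 of the 5 markers of mossy and CA pyramidal cells that entered were at least 2-fold higher in PTZ cells, among them *Calb2* (46.5 against 3.01 CPM). The 1 astrocyte marker that entered, *Slc1a3*, was higher too (258 against 10.4 CPM), but was detected in 6 of 30 PTZ and 8 of 38 saline cells. The part of these markers in the differences of the processing genes was not tested.

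**Figure D5:**
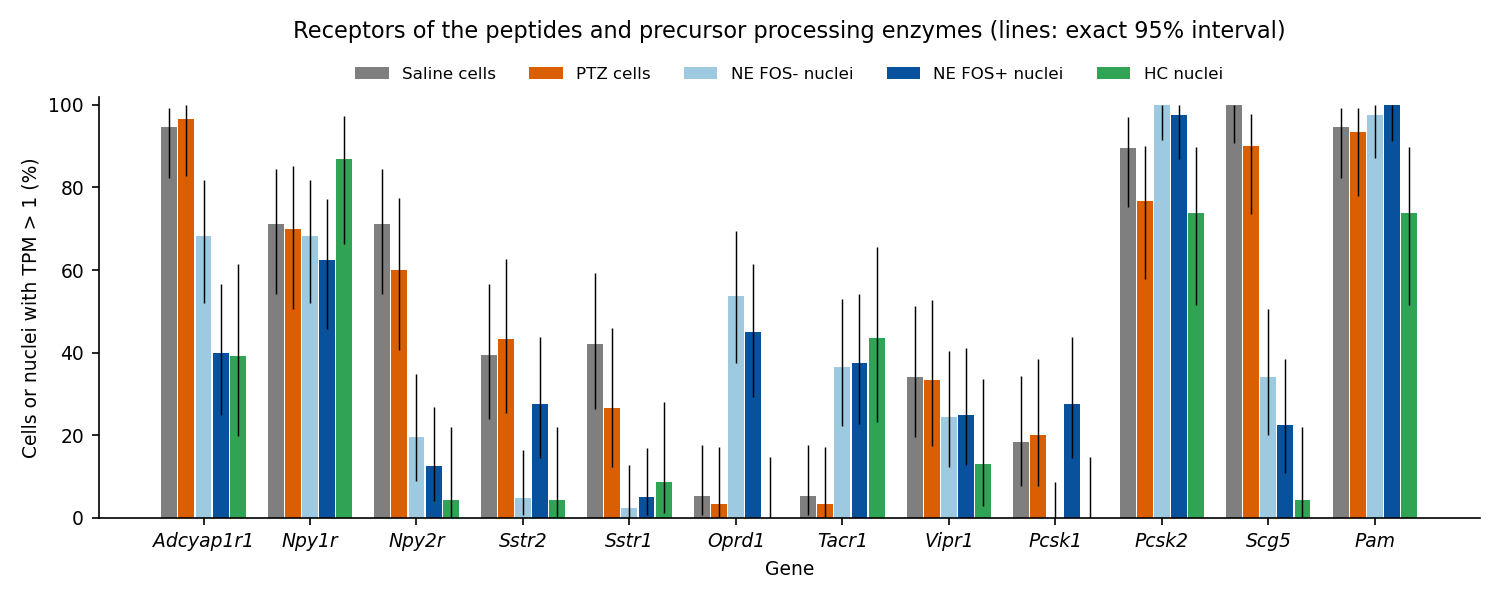
Share of kept cells or nuclei with a TPM above 1 (%, vertical axis) for 8 receptor genes and 4 processing genes by group; lines are exact 95% binomial intervals. *Pcsk1* and *Sstr2* had higher bars in FOS+ than in FOS− nuclei (27.5% against 0% and 27.5% against 4.88%), and *Adcyap1r1* the reverse (40% against 68.3%).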

How the data were processed

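The authors trimmed reads with Solexa-QA++, aligned them to mm10 with RSEM and Bowtie 1.0.0 and deposited expected counts, not normalized, and TPM per cell in 3 tables. Cells were kept if the total count exceeded 50000 and the number of genes with a TPM above 1 exceeded the table's mean minus 2 SD, except that all 23 HC nuclei were kept. Groups came from the labels. Expected counts were summed over cells, unrounded except for intervals, and scaled to CPM. Ratios were read against 2-fold and shares against 20 percentage points, among genes detected in at least 5 cells. Shares have exact Clopper-Pearson intervals, ratios exact conditional Poisson intervals (scipy 1.17.1), all at 95% and for counting error only, since there were no molecular identifiers. A count of 3, the most that a count of 0 allows, was 5.85e-05% to 0.00470% of a cell's total. The study's own test, edgeR (4.0.16), was used for TMM factors alone. The calculation was tested on simulated counts that held counting error only. They lacked the spread between cells seen here, so they do not show how reliable the calls are. All 8 members are described, listed genes are named by detection in at least 20% of a group or by a call, and the receptors named as rarely detected were chosen after their values were seen. The members and lists were chosen with earlier results of these data known. FOS+ nuclei set aside by the study on expression are not marked in the labels and were kept.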

Additional observations from a re-analysis of the deposited data

How the results depend on the processing

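No paired analysis was possible because the labels carry no replicate numbers that pair cells and because no result came from a test. For PTZ against saline, 0 members past 2-fold and 0 past 20 points were found under every alternative run: TMM and median-of-ratios factors, mean TPM, the top cell of each group left out, all cells of the table, other limits of detection, thinning to 50000 counts, and, chosen after seeing the data, 7 PTZ cells shallower than any saline cell left out. For FOS+ against FOS−, *Npy* and *Pdyn* were the 2 members past 2-fold under both scalings, with all nuclei and, also chosen after seeing the data, without nuclei that detected *Gad2*, *Slc32a1* or *Lhx6*. With mean TPM *Sst* was added (3 members), and without the top nucleus of each group *Sst* and *Grp* were added (4 members). The members past 20 points stayed at 0. TMM factors moved every log2 ratio of FOS+ over FOS− up by 0.25 and median-of-ratios factors by 0.20. They moved those of PTZ over saline by 0.04. The median log2 ratio over all genes that entered was −0.20 for FOS+ over FOS−. With no filter on low genes, 59.7% of 23899 genes passed 2-fold between FOS+ and FOS− and 46.2% of 21136 between PTZ and saline. The sign of small ratios was not stable: those of *Pdyn* in PTZ cells, *Cck* and *Grp* in FOS+ nuclei turned under mean TPM, *Cck* also without its top nuclei and *Grp* also without nuclei with *Gad2*, *Slc32a1* or *Lhx6*. Of 115 recomputed shares of the 23 pairs of a member and a group with a detecting cell, 113 stayed within the counting interval, and the other 2 were those of *Npy* in FOS− nuclei (0%) and *Sst* in FOS+ nuclei (2.5%) at a limit of 5 counts. Levels that rest on 1 to 4 counts in a nucleus, as for 3 of the 4 FOS+ nuclei with *Sst*, cannot be ranked at this depth. With 1 or 2 mice behind each group, spread between animals was not measured.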

Other observations

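Another 27 neuropeptide precursors were followed as a list. Of these, 6 were detected in at least 1 saline cell and 13 in at least 1 PTZ cell, and 9 in FOS− nuclei, 9 in FOS+ nuclei and 3 in HC nuclei. *Gal*, the precursor of galanin, was detected in 7 of 30 PTZ cells and 1 of 38 saline cells, 20.7 points higher, at 14.1 and 3.59 CPM. *Calb2*, from the list of mossy and CA pyramidal markers, was also detected in 7 PTZ cells and 1 saline cell. Whether these were the same cells was not examined, and the part of *Calb2* in the *Gal* difference was not tested. *Nppc*, the precursor of C-type natriuretic peptide, was detected in 7 cells of each treatment, at 4.37 CPM in PTZ and 16.3 CPM in saline cells. *Vip*, the precursor of vasoactive intestinal peptide, stood at 77.9 CPM in FOS− and 0.553 CPM in FOS+ nuclei with 3 detecting nuclei in each, and a single FOS− nucleus held 99.7% of the FOS− counts. *Pnoc*, the precursor of nociceptin, was detected in 7 FOS+ and 7 FOS− nuclei at 0.735 and 1.17 CPM. Of the 27 genes, 4 entered each comparison. *Vip* and *Pnoc* were chosen after their values were seen.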
